A study of Rattus norvegicus with 4 samples.

Results

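The S100 genes encode small calcium-binding proteins, and 10 of them were followed here by symbol (S100b, S100a1, S100a4, S100a6, S100a8, S100a9, S100a10, S100a11, S100a13 and S100a16), out of 30708 genes with a value in each library. They were measured by RNA-Seq in S16, a permanent line of rat Schwann cells in which SOX10 and myelin genes are active. The 4 libraries came from unmodified cells without any treatment, 2 of them from a population at passage 9, the parent of enhancer-deleted lines that were not analysed here, and 2 from a population at passage 39. Both populations were S16 cells in the same kind of medium, 1 population per passage, and the 2 libraries of a passage are labelled technical replicates 1 and 2. Each value is an RPKM, the reads of a gene scaled to its length in kilobases and to 1000000 reads of the library, so levels can be set side by side between genes.

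S100 proteins carry a pair of EF-hand calcium-binding loops, mostly work as dimers, and on binding calcium expose a surface that grips target proteins. Some act inside the cell, on annexins, the cytoskeleton, kinases or p53, and some are also released and act on cell-surface receptors such as the receptor for advanced glycation end products. In peripheral nerve, S100B is the classical protein marker of Schwann cells, and in skin and blood S100A8 and S100A9 mark keratinocytes under stress and myeloid cells.

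The members spanned the whole range of expression in S16 cells. S100a10, S100a4, S100a6 and S100a11 were among the 30 most highly expressed genes of the cells, at mean levels from 739.5 to 1547 RPKM. S100b, the Schwann cell marker, stood at 59.2 RPKM, and S100a13 and S100a1 were low, at 5.32 and 2.16 RPKM. S100a8, S100a9 and S100a16 were at or near 0. With the labels taken as given, none of the 7 members that were tested differed by 1.5-fold between the passages. Only 0.0272% of all genes tested did. By technical replicate number, S100b was 2.67-fold lower in the second than in the first over both passages.

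The libraries grouped by technical replicate number rather than by passage, which bears on every level given here. Recovered totals were between 34246093 and 41382234 reads per library, more than the methods give per cell line, and this gap was not resolved. Reads, intervals and floors rest on the recovered numbers. The SD of the log2 differences over the 11025 genes that averaged 1 RPKM or more was 0.080 and 0.082 between same-numbered libraries of different passages, but 0.339 and 0.334 between the 2 technical replicates of 1 passage. Per the methods the technical replicates were pooled and spread over the lanes, and what else the number stands for is not given in the sources used here. The labels were used as given, and whether number and passage were exchanged for some libraries cannot be told apart from these values. If they were, the differences by number below would be differences by passage. Means ± SD below are over the 2 populations (n = 2), after averaging the libraries of each, and this SD does not contain the difference between the numbers. Each passage was 1 population, so there is no replicate check and no p-value is given. Intervals are 95% exact intervals of the recovered reads, and they cover counting error only.

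Promoter sequence is shown for 5 members because the members differed so widely in level. It is the 250 bases before the annotated start in RefSeq, in the GRCr8 build, which is not the build of the expression files, and 7 of the 10 members had an entry. No entry was found for S100a1, S100a8 and S100a10. The sequences below belong to S100b (chr20:12381082-12381331, minus strand), S100a4 (chr2:178388279-178388528, plus strand), S100a6 (chr2:178398287-178398536, plus strand), S100a11 (chr2:181874882-181875131, plus strand) and S100a9 (chr2:178490623-178490872, minus strand), the last as a member listed at 0 in every library. Capitals mark the letters TATAAA and the 4 words of a SOX10 monomer, which are ACAAA as well as ACACA, besides these ACAAT, and lastly ACAAG, all searched on both strands. In the printed strand TGTGT is thus the reverse complement of the word ACACA, whereas ATTGT is that of ACAAT.
S100b: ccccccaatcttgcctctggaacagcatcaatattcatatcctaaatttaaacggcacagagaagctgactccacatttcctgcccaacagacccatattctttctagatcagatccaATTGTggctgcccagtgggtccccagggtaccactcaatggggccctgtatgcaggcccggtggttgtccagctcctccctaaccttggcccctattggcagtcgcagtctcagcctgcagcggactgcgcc
S100a4: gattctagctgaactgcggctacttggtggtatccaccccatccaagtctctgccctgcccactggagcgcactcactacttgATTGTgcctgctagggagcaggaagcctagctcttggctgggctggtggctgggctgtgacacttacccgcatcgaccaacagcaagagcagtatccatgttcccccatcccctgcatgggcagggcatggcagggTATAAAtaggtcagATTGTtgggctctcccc
S100a6: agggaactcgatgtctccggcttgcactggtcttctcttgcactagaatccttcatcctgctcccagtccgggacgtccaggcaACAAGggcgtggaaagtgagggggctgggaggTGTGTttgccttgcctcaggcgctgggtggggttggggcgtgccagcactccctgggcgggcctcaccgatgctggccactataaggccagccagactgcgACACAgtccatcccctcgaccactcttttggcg
S100a11: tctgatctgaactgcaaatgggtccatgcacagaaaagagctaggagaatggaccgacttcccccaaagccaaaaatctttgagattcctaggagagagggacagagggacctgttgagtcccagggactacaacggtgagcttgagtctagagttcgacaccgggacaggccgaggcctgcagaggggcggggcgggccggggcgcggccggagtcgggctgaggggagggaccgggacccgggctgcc
S100a9: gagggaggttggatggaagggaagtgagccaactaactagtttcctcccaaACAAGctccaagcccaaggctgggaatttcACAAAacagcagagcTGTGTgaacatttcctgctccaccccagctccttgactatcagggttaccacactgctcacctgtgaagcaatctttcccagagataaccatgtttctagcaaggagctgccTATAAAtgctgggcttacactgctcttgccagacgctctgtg

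TATAAA stood 31 bases before the start of S100a4 and 42 bases before the start of S100a9, so it was present in the promoter of a gene at 1419 RPKM and of a gene listed at 0. It was held by 12.9% of all 33469 promoters of this length. At least 1 SOX10 word occurred in 79.6% of all promoters, with a median of 2 matches. The S100b promoter held 1 such match, at -132, the S100a4 promoter held 2, the S100a6 and S100a9 promoters held 3 each, and the S100a11 promoter held none. S100a13 and S100a16 held 1 each. Neither the AP-1 letters TGANTCA, held by 6.34% of all promoters, nor the TEAD letters GGAATG, held by 12.1%, was found in any of the 7. No match overlapped another. The GC content was 62.4% for S100a6 and 62.0% for S100a11, with 12 and 14 CpG, against a median of 51.2% and 5 CpG over all promoters, and it was 54.8% with 5 CpG for S100b. A match of letters is only a description of these windows.

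**Figure D1:**
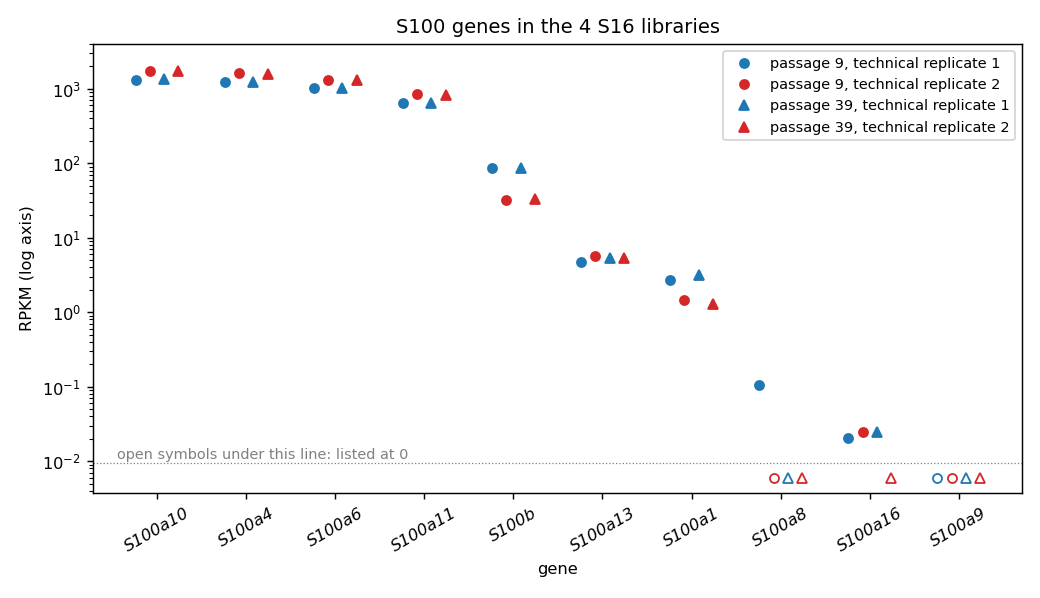
RPKM of each S100 gene in the 4 libraries, on a log axis, with circles for passage 9, triangles for passage 39, blue for the first and red for the second technical replicate, and open symbols for values listed at 0. The 4 members at the left lie between 637 and 1761 RPKM, and the blue and red symbols of S100b lie apart, at 85.7 and 86.6 against 31.8 and 32.8 RPKM.

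S100b encodes a protein that is abundant in Schwann cells and astrocytes, binds targets such as the kinase STK38 and tubulin inside the cell, and acts on the receptor AGER when released. Its level was 85.7 and 86.6 RPKM in the first technical replicates of passages 9 and 39, and 31.8 and 32.8 RPKM in the second. Both first replicates thus stood above both second replicates, while the passages were alike within each number. Over both populations the mean was 59.2 ± 0.653 RPKM (SD, n = 2), rank 1137 of all listed genes. The ratio of second to first was 0.371 (95% interval 0.352 to 0.391) at passage 9 and 0.378 (0.360 to 0.398) at passage 39, from between 1821 and 5786 reads a library.

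On the log2(RPKM + 1) scale the difference of S100b by number, which is second minus first technical replicates, was -1.39 (-1.40 at passage 9 and -1.38 at passage 39), and it was the only member past 2-fold in that direction. Across all genes tested, 0.726% passed 2-fold lower with both passages going the same way, and 0.299% had a lower difference than S100b. The S100b gene overlaps Dip2a in the GRCr8 annotation, and reads were counted without regard to strand. Dip2a stood at 8.64, 8.55, 8.62 and 8.94 RPKM (passage 9 replicates 1 and 2, then passage 39 replicates 1 and 2). Its difference by number was 0.017. The part of this overlap in the S100b values was not tested.

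S100a1, whose protein is best known for regulating calcium cycling in heart and skeletal muscle, went the same way at a much lower level. It stood at 2.74 and 3.13 RPKM in the first replicates of passages 9 and 39, and 1.45 and 1.30 RPKM in the second, with 57 to 127 reads a library. The first replicates were again above the second replicates, without overlap. The mean was 2.16 ± 0.0856 RPKM (SD, n = 2). The ratio of second to first was 0.529 (0.380 to 0.729) and 0.417 (0.300 to 0.573), and the difference was -0.73 on the log2(RPKM + 1) scale, which understates the change of so low a gene. It passed 1.5-fold, as 3.15% of all genes did in this direction, but not 2-fold. With a pseudocount of 0.1 RPKM in place of 1, or with each library rescaled to a common sum, its difference was -1.04 or -1.06, past 2-fold.

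S100a10 and S100a11 are the members that join annexins. S100A10, also called p11, forms a tetramer with annexin A2 and, unlike its relatives, does not need calcium to do so, and S100A11 pairs with annexin A1. S100a10 was the highest member, at 1312 and 1374 RPKM in the first replicates of passages 9 and 39, and 1743 and 1761 RPKM in the second, with a mean of 1547 ± 28.3 RPKM (SD, n = 2) and rank 11. S100a11 stood at 644 and 637 RPKM in the first replicates of passages 9 and 39, and 845 and 831 RPKM in the second, with a mean of 739.5 ± 7.21 RPKM (SD, n = 2) and rank 29. Both genes were higher in the second technical replicates than in the first, the opposite of S100b. The ratio of second to first was 1.33 (1.31 to 1.35) and 1.28 (1.26 to 1.30) for S100a10, and 1.31 (1.28 to 1.34) and 1.30 (1.27 to 1.33) for S100a11. These are differences of 0.38 and 0.39 on the log2(RPKM + 1) scale, which do not reach 1.5-fold. The GRCr8 annotation names 5 pseudogenes of S100a11 and 1 of S100a10, and because only uniquely aligned reads were kept, reads of sequence shared with a copy could have been lost, so both levels are uncertain.

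S100a4 and S100a6 act on the cytoskeleton and on protein turnover. S100A4, or metastasin, binds non-muscle myosin and is tied to cell motility, and S100A6, or calcyclin, binds CACYBP and annexins. S100a4 stood at 1234 and 1230 RPKM in the first replicates of passages 9 and 39, and 1611 and 1600 RPKM in the second, with a mean of 1419 ± 5.55 RPKM (SD, n = 2) and rank 12. S100a6 stood at 1030 and 1012 RPKM in the first replicates of passages 9 and 39, and 1306 and 1294 RPKM in the second, with a mean of 1160 ± 10.9 RPKM (SD, n = 2) and rank 16. Here too every second replicate was above every first replicate. The ratio was 1.31 (1.29 to 1.33) and 1.30 (1.28 to 1.32) for S100a4, and 1.27 (1.24 to 1.29) and 1.28 (1.25 to 1.30) for S100a6. In the annotation these neighbours on chromosome 2 are separated by S100a5 alone, which had a mean of only 0.138 RPKM.

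S100a13, which takes part in the release of FGF1 from cells, was low and did not separate the libraries. It stood at 4.79 (first) and 5.77 RPKM (second) at passage 9, with 5.37 RPKM in each library of passage 39, with 284 to 341 reads a library and a mean of 5.32 ± 0.0639 RPKM (SD, n = 2). The ratio of second to first was 1.21 (1.03 to 1.42) at passage 9 and 1.00 (0.853 to 1.18) at passage 39. Its difference by number was 0.11 as deposited and -0.012 with the libraries rescaled to a common sum, so it has no stable direction. S100a1 and S100a13 are neighbours in the annotation, and S100a13 was above S100a1 in 4 of 4 libraries.

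The remaining members had almost no reads. S100a8 and S100a9, neighbours whose proteins form calprotectin, the abundant calcium- and zinc-binding dimer of neutrophils and monocytes, were listed at 0 in 3 and in 4 of the 4 libraries. S100a8 had 0.105 RPKM in the first technical replicate of passage 9, and with a value in 1 library its reads could not be recovered. S100a16, a widely expressed member in other tissues, had 1 recovered read in each of 3 libraries and none in the fourth (0.0207, 0.0245, 0.0251 and 0 RPKM). All were below the 0.0622 to 0.0752 RPKM that 3 reads would give. Both rest on the smallest whole reads that give these values, so a shared larger factor would not be seen. A value at 0 is reported only as listed, since 2 of the 12 listed Polr2 genes, Polr2h and Polr2l, which encode subunits of RNA polymerase II that every cell uses, were also listed at 0 in all libraries. Of 10 myeloid and granulocyte markers, 5 (Ptprc, Itgam, Lyz2, Elane and Camp) were listed at 0 everywhere, and all 10 together summed to at most 1.63 RPKM a library. Most of that sum came from Cd68, the only marker of the list that averaged 1 RPKM or more. Its values were 1.35 and 1.46 RPKM in the first replicates of passages 9 and 39, and 1.45 and 1.34 RPKM in the second.

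The order of the members from S100a10 down to S100a1 was the same in all 4 libraries. The ranges of S100a10 and S100a4 overlapped, as did those of S100a4 and S100a6, because of the difference between the numbers, yet within every library the gene named first was the higher. S100a6 and S100a11 did not overlap, nor did S100a11 and S100b, S100b and S100a13, or S100a13 and S100a1. Below these, S100a8, S100a16 and S100a9 could not be ordered.

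Together the 10 members held 4314 and 4348 RPKM in the first replicates of passages 9 and 39, and 5544 and 5526 RPKM in the second, or between 1.37% and 1.59% of the RPKM sum of a library. The 4 high members made up 97.8% of this in the first and 99.3% in the second technical replicates. The share of S100b was 1.99% in both first replicates and 0.574% and 0.593% in the second. The balance between members therefore depended on the library number. There was 15.3 and 15.9 times as much S100a10 as S100b in the first replicates, against 54.8 and 53.7 times in the second. The ratio of S100a10 to S100a11 stayed between 2.04 and 2.16 and that of S100a4 to S100a6 between 1.198 and 1.24, in all 4 libraries.

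Between passages, 0 of the 7 members that averaged 1 RPKM or more differed by 2-fold or by 1.5-fold. Across all genes tested, 0.00907% and 0.0272% did. The other 3 members were too low to enter. The log2 differences, passage 39 minus passage 9, ran from -0.020 for S100a11 to 0.055 for S100a1, with a median of 0.021 against -0.0021 over all genes. S100b differed by 0.022, although leaving out the first library of either passage turned this into 0.89 or -0.82, since the populations are then means over unequal numbers. Of the 14 ratios between same-numbered libraries, only that of S100a10 in the first replicates had an interval that left 1, at 1.05 (1.03 to 1.06).

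**Figure D2:**
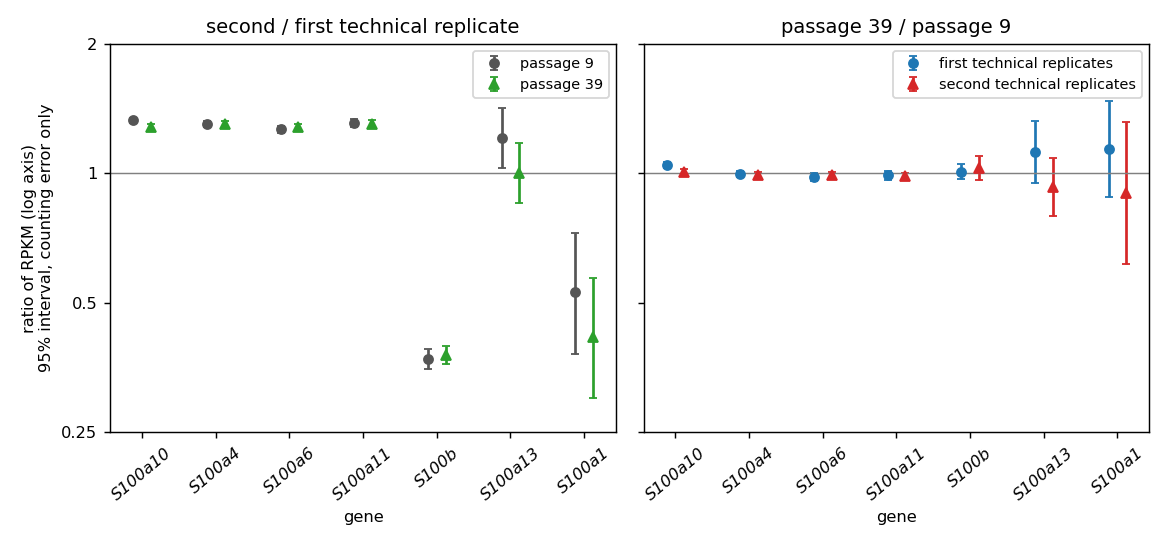
Ratios of RPKM for the 7 members that averaged 1 RPKM or more, on a log axis with 95% intervals for counting error, second over first technical replicate at the left and passage 39 over passage 9 at the right. At the left S100b lies near 0.37 and the 4 high members between 1.27 and 1.33 at both passages, while at the right every interval includes 1 but that of S100a10 in the first replicates, at 1.05 (1.03 to 1.06).

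By technical replicate number, 2 of the 7 members (S100b and S100a1) had negative and 5 had positive differences, second minus first, and 4 of the 5 were higher by nearly the same factor. Their median difference was 0.35, against 0.10 over all genes, of which 6535 had positive and 3544 negative differences at both passages. Counted by threshold, 1 member was past 2-fold lower and 2 were past 1.5-fold lower, where 0.726% and 3.15% of all genes were. None was past either threshold higher, where 0.354% and 2.87% of all genes were. The medians of all genes differ from 0 as deposited, and they were -0.026 with each library rescaled to a common sum and 0.027 with median-ratio scaling. Under these scalings the differences of S100a4, S100a6, S100a10 and S100a11 were between 0.20 and 0.30, still positive, and those of S100b were -1.55 and -1.48.

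The difference by number varied with gene length. The median was 0.28 over the 552 genes with recovered lengths of 5 to 635 bp and -0.22 over the longest genes. A recovered length can be too short, so the bin of shortest genes may hold longer ones. The 4 high members are all short, with recovered lengths of 573 bp (S100a10), 597 bp (S100a4), 505 bp (S100a6) and 554 bp (S100a11). Relative to genes of similar length their differences were 0.10, 0.10, 0.066 and 0.10, and between 30.4% and 38.2% of those genes were higher still. S100b, of 1631 bp, stood at -1.597 relative to the median of genes of its length, and 99.5% of these lay above it. S100a1, of 1120 bp, stood at -0.95, and S100a13, of 1545 bp, at -0.096. The part of length in these differences was not tested further.

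**Figure D3:**
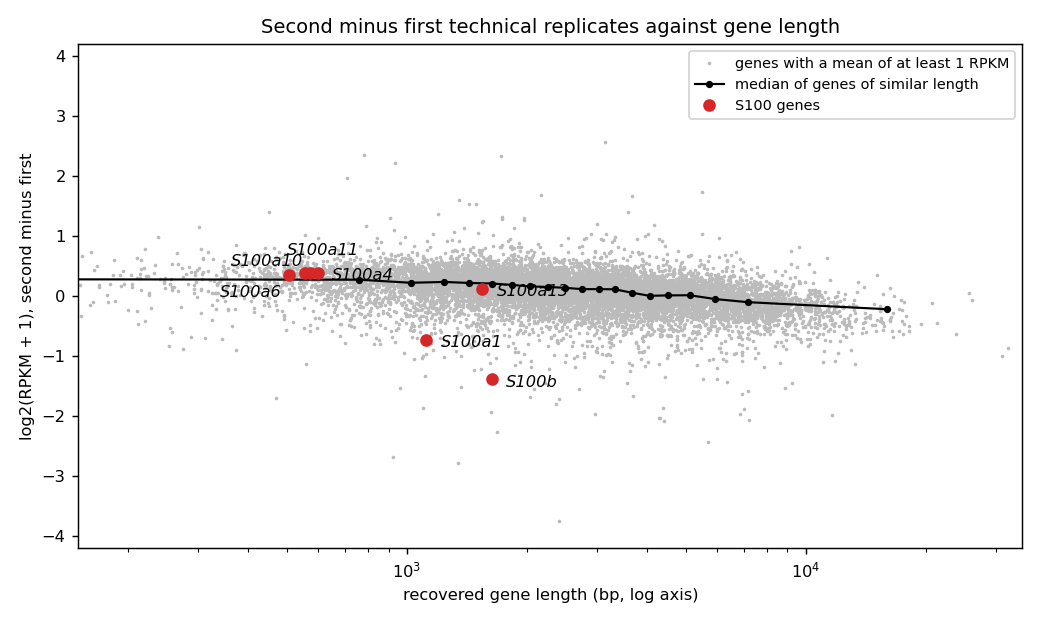
Difference between second and first technical replicates on the log2(RPKM + 1) scale against recovered gene length on a log axis. Grey points are genes that averaged 1 RPKM or more, had a recovered length and fall within the axes. The black line is the median of genes of similar length, with the point of the shortest bin off the axis, and red points are S100 genes. The 4 short members lie just above the line, at 0.35 to 0.39, and S100b at -1.39 and S100a1 at -0.73 lie far below it.

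The annexins are calcium- and phospholipid-binding proteins, and several are partners of S100 proteins. Of 12 listed, 8 were tested, 7 had positive and 1 negative differences by number under each of the scalings, and 3 passed 1.5-fold higher as deposited, where 2.87% of all genes did. The median was 0.49, against 0.10 over all genes, of which 6535 had positive and 3544 negative differences. Anxa1, the partner of S100A11, stood at 378 and 376 RPKM in the first replicates of passages 9 and 39, and 589 and 597 RPKM in the second, a difference of 0.65. Anxa2, the partner of S100A10, stood at 299 and 302 RPKM in the first replicates of passages 9 and 39, and 467 and 469 RPKM in the second, a difference of 0.64. S100a10 was thus 4.39 and 4.55 times as high as Anxa2 in the first and 3.73 and 3.76 times as high in the second replicates. With rescaling to a common sum the differences of Anxa1 and Anxa2 were 0.51 and 0.49, and with median-ratio scaling 0.56 and 0.55, no longer past 1.5-fold. Anxa7, named after its value was seen, was the third past it, with 0.77, and stayed past it with 0.64 and 0.68. Anxa5 had the third highest mean, at 241.5 RPKM. Anxa6, an annexin with a duplicated core, had -0.24, and Anxa10 was listed at 0. No annexin differed by 1.5-fold between passages.

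Of 6 genes taken as receptors of released S100 proteins, 4 were tested and none passed 1.5-fold on the log2(RPKM + 1) scale. By number, 3.15% of all genes passed it lower and 2.87% higher. Bsg, or basigin, a receptor of S100A9, was highest with 164.7 RPKM, followed by Fgfr1 with 48.7 and Ncam1 with 48.4 RPKM. Ager, the best known S100B receptor, was barely present at 1.02, 1.42, 0.843 and 1.54 RPKM, and Cd36 was listed at 0. The median difference by number over the tested receptors was 0.22, and 0.075 and 0.13 under the scalings.

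Of 19 intracellular partners, 16 were tested and 1 passed 1.5-fold lower in the second replicates, where 3.15% of all genes did, with a median of 0.041 as deposited and of -0.10 and -0.044 with rescaling to a common sum and with median-ratio scaling. Vim, the intermediate filament vimentin, was the third most highly expressed gene of the cells with 2602 RPKM and a difference of 0.23. Cacybp, the calcyclin-binding partner of S100A6, stood at 109.7 RPKM with 0.38, beside 0.35 for S100a6. Of all genes tested, 16.4% had a higher difference than S100a6. Capza2, a subunit of the actin-capping protein that S100B binds, stood at 99.9 RPKM. The gene past 1.5-fold was Fgf1, the growth factor released with S100A13, at 6.27 and 6.23 RPKM in the first replicates of passages 9 and 39, and 3.21 and 3.41 RPKM in the second, a difference of -0.75, and of -0.99 and -0.82 under those scalings. Gfap, which S100B binds, also passed 1.5-fold lower with rescaling, at -0.63, as 766 genes did under that scaling, against 347 as deposited. Stk38, the kinase bound by S100B, stood at 9.63 RPKM, and Myh9, the non-muscle myosin bound by S100A4, was listed at 0.0203 RPKM beside 9.97 RPKM for its relative Myh10. Whether so low a value is the true level of the gene was not tested. Syt1 was listed at 0. Fgf1, Gfap, Stk38, Myh9 and Myh10 were named after their values were seen.

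Other S100 and EF-hand genes gave few values. Of 9 further symbols that start with S100, 8 were listed, with S100g, S100z and S100vp at 0 in every library. S100pbp, which encodes a binding protein of S100P, and S100a3 were tested at 4.48 and 1.67 RPKM, neither past 1.5-fold. S100a14, next to S100a16 in the annotation, had 0.227 RPKM. Of 7 fused S100 genes of the epidermis, 5 were listed and none reached 1 RPKM, with Rptn and Tchh at 0. Of 12 other small EF-hand genes reported here, 6 were tested and none passed 1.5-fold. Calm3 and Calm2, which code for a general calcium sensor of the cell, stood at 130.6 and 27.7 RPKM and Ncs1, a neuronal calcium sensor gene, at 20.5 RPKM, all below the 4 high S100 genes, and Calb2, Calml3 and Hpca were listed at 0.

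**Figure D4:**
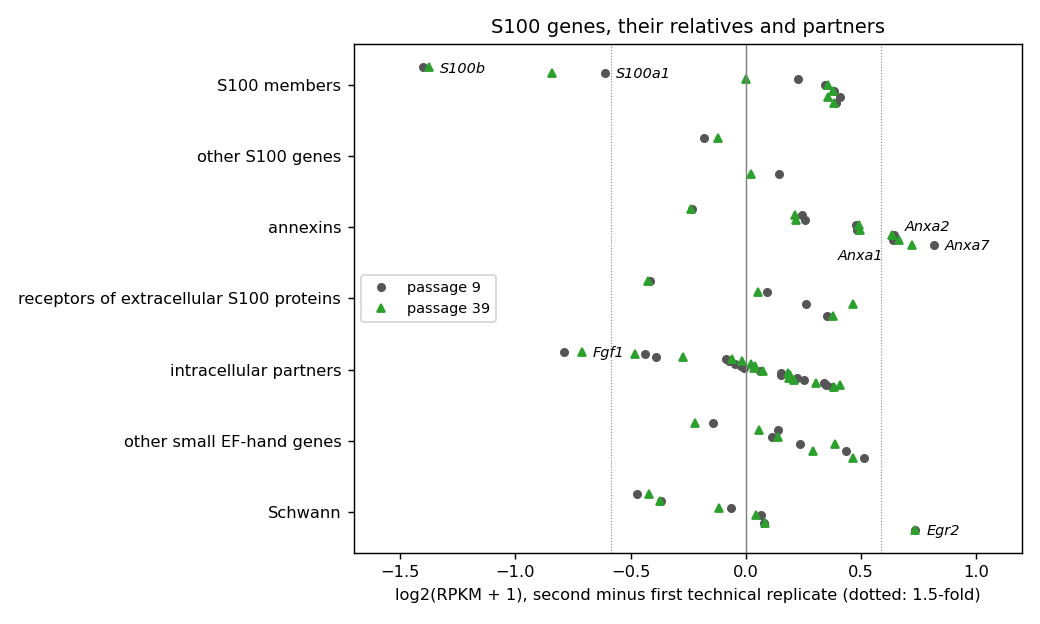
Difference between second and first technical replicates at passage 9 (circles) and passage 39 (triangles) on the log2(RPKM + 1) scale for the tested genes of each list, with dotted lines at 1.5-fold and names for genes past it. The annexins lie mostly at the right, up to 0.82 and 0.72 for Anxa7, and S100b lies farthest to the left, at -1.40 and -1.38.

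The gene whose values lay nearest to those of S100b over the 4 libraries was Tnc, the matrix protein tenascin-C, at 80.9 and 81.0 RPKM in the first replicates of passages 9 and 39, and 30.2 and 30.5 RPKM in the second. Its Euclidean distance on the log2(RPKM + 1) scale was 0.176. Next were Mmp15, a membrane-bound matrix metalloproteinase, at 0.497, and Mki67, the proliferation marker, at 0.607. This measure takes in level as well as pattern.

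S100b serves as a Schwann cell marker, so other markers of this cell type were set beside it, 8 reported here, of which 6 were tested. Pmp22, a gene of peripheral myelin, stood at 1255 RPKM with a difference by number of 0.080, and Ngfr, the low-affinity neurotrophin receptor, at 283.0 RPKM with -0.091. Sox10, the transcription factor of the lineage, stood at 176.1 RPKM with 0.056, and both it and Pmp22 turned negative under the scalings, at -0.090 and -0.067 with rescaling. Erbb3, the neuregulin co-receptor, stood at 89.2 RPKM with -0.44, and Mag, a myelin glycoprotein gene, at 69.4 RPKM with -0.37. With rescaling Erbb3 was past 1.5-fold lower at -0.59, as were 766 genes under that scaling, against 347 as deposited. Egr2, a transcription factor of myelination, was past 1.5-fold higher, with 0.73, where 2.87% of all genes were. Erbb3, Mag and Egr2 were named after their values were seen. Gap43 was listed at 0. Cdh19, the other marker too low to be tested, went the same way as S100b. Its values were 1.77 and 1.67 RPKM in the first replicates of passages 9 and 39, and 0.133 and 0.175 RPKM in the second. The part of Schwann cell markers in the difference of S100b was not tested. In bulk RNA a smaller share of cells and less RNA per cell cannot be told apart.

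Markers of other cell types that express S100 genes were mixed. Of 6 fibroblast markers, which S100A4 also labels, 3 were tested. Col1a1 was the most highly expressed gene of the cells at 3588 RPKM. Col3a1 stood at 65.9 RPKM and was past 1.5-fold lower, with -0.73, where 3.15% of all genes were. Pdgfra stood at 5.35 RPKM. Col1a2, whose chain joins that of Col1a1 in collagen I, was listed at 0.339 RPKM, which as for Myh9 may not be its level. Col1a2, like Dip2a and the Polr2 genes above, was named after its value was seen. The fibroblast markers summed to 3432 and 3446 RPKM in the first and 3934 and 3826 RPKM in the second replicates. Nearly all of this was Col1a1, at 3344 and 3359 RPKM in the first and 3877 and 3771 RPKM in the second. Dcn and Lum, of the same list and also named after their values were seen, averaged 0.0033 and 0.0534 RPKM. Of 5 melanocyte markers 2 were tested, Pmel at 8.72 and Mitf at 2.75 RPKM, with Tyr at 0 and a sum between 10.9 and 11.8 RPKM. Of 5 astrocyte markers, another S100B-rich cell type, only Gfap was tested, at 12.7 RPKM with -0.46, and -0.63 with rescaling, and Aqp4 was listed at 0. The astrocyte sum, nearly all of it Gfap, was 15.03 and 15.01 RPKM in the first and 10.9 and 10.4 RPKM in the second replicates. Of 5 neuron markers only Tubb3 was tested, at 56.2 RPKM, and it made up nearly all of the list's sum. That sum was 49.8 and 49.6 RPKM in the first and 62.1 and 63.5 RPKM in the second replicates. The part of these cell types in the S100 values was not tested.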

How the data were processed

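Poly(A) RNA was measured in 4 libraries. The authors used TruSeq kits and single-end sequencing, and per the labels and the paper's methods used FastQC, STAR and HTSeq with the rat rn5 genome, kept uniquely aligned reads and counted them without regard to strand. The deposited values are RPKM per gene symbol, and the files point to RefSeq gene models. Versions, gene lengths and read totals per library are not given in the sources used here. The methods give a read number per cell line that is lower than the totals recovered below. Every file and value column was used.

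Ratios of RPKM values gave back whole reads, totals and lengths for 18111 of the 18114 genes above 0 in 2 or more libraries. The smallest whole reads were taken, so a factor shared by all libraries may go unseen and a recovered length can be too short. Totals gave a precision shown by exact Clopper-Pearson intervals (levels) and exact conditional intervals (ratios) at 95%. Copies made by PCR were not told apart, so these cover counting error only. The recovery and the counts were tested on simulated data.

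Differences were taken on the log2(RPKM + 1) scale for the 11025 genes that averaged 1 RPKM or more, and counted past 2-fold and 1.5-fold. By number, both passages also had to go the same way. An exact two-sided permutation test of 2 against 2 libraries cannot give less than p = 0.333, so no test was run. Genes of similar length are 20 bins of recovered length. Python 3.11.15, numpy 2.4.6, pandas 2.3.3, scipy 1.17.1 and matplotlib 3.10.9 were used.

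The members, the lists and the comparison by number were chosen with earlier results of these data known. Named were all 10 members, from each other list up to 3 genes with the highest mean, every gene past 2-fold and the markers at 0, and the 3 genes nearest to S100b. Others are said to be named after their values were seen, and Ager, Anxa6 and S100a5 were also named outside this rule. Alternatives were 2 scalings, a pseudocount of 0.1 RPKM, no minimum or 5 RPKM, each library left out, each passage alone, gene length and a replicate block. Proteins were not analysed here. From the lists of Schwann cell and EF-hand genes, 3 genes are not reported here and were left out of the counts, so no sum or median of these lists is given.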

Additional observations from a re-analysis of the deposited data

Results flagged for a closer look

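Over the 4 libraries, 14 genes with symbols that start with S100 had values that varied. They were checked for 1 library that stood far from the others, and 2 were found. Chance gives about 1 in 20 for 4 like samples, a rate that need not hold for libraries that fall into pairs by number. S100a8 had 0.105 RPKM in the first technical replicate of passage 9 and 0 in the other 3 libraries, so its gap was the whole range, a ratio of 1 that any gene with a single value above 0 has. S100a3 stood at 1.47, 1.73, 1.72 and 1.76 RPKM (passage 9 replicates 1 and 2, then passage 39 replicates 1 and 2), so the first library was lowest with a ratio of 0.863. That library had 104 reads of S100a3, with an interval that reaches 1.78 RPKM and takes in the values of the other libraries. In both genes the library that stood apart was the first technical replicate of passage 9.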

How the results depend on the processing

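The differences by number of S100b and S100a1, the members past a threshold, kept their direction under every alternative run, and S100b stayed between -1.60 and -1.38 by number. The libraries resembled each other by number, but the number is not stated to mark a shared batch. With it as a replicate block, S100b differed between passages by 0.028 and 0 members and 1 gene were past 2-fold, as without it. The summed level of the members was 14767 RPKM with libraries rescaled to 1000000, 4907 RPKM with median-ratio scaling, and 4626 to 5241 RPKM with 1 library left out, against 4933 RPKM. Members past 2-fold lower by number were 2 instead of 1 with rescaling and with a pseudocount of 0.1 RPKM, S100a1 being the second. Members past 1.5-fold lower were 1 at a minimum of 5 RPKM, which removes S100a1. With 1 library left out, 0 to 1 members (S100b, without either first replicate, at 0.89 and -0.82 and so in opposite directions) were past 1.5-fold between passages, and the genes past 2-fold were 9 to 27 and past 1.5-fold 73 to 109. Otherwise the genes past 1.5-fold between passages were 6 with rescaling, 8 with the lower pseudocount, 5 without a minimum and 0 at 5 RPKM, where those past 2-fold were also 0. Genes past 2-fold lower by number were 189 with rescaling and 161 with the lower pseudocount, and 89 were past 2-fold higher with that pseudocount. Genes past 1.5-fold lower were 766, 525 and 221 with rescaling, the lower pseudocount and 5 RPKM, and those higher were 195 with rescaling, 190 with median-ratio scaling and 520 with the lower pseudocount. The cause of these shifts was not tested, apart from the minimum, which tests fewer genes. Depth limits S100a1, S100a8 and S100a16, and no read depth is known for S100a9.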

Other observations

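Several genes of the lists that were too low to be counted had larger ratios of RPKM between the technical replicate numbers than S100b, among them Cdh19 and Anxa8. Cdh19, a cadherin of Schwann cell precursors, stood at 1.77 and 1.67 RPKM in the first technical replicates of passages 9 and 39, and at 0.133 and 0.175 RPKM in the second, 11.2-fold lower by the means. Anxa8 went the other way, at 0.0935 and 0.0377 RPKM in the first and 0.907 and 0.649 RPKM in the second replicates, 11.9-fold higher. On the log2(RPKM + 1) scale the differences were -1.24 and 0.74, smaller than that of S100b. These genes were named after their values were seen.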
